A study of Mus musculus with 17 samples.

Results

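The genes described here are the 397 protein-coding genes whose annotated position begins in the first 5 Mb of a mouse autosome other than chromosome 14, called proximal genes below. They were taken from the 47643 rows of the deposited gene table by their GRCm38 coordinates, and Penk, Rps9, Rps20, Crem, Osm, Map3k8 and AI838599 were left out by rule. They lay on 18 autosomes, with 65 on chromosome 19, 60 on chromosome 7, 42 on chromosome 11, 41 on chromosome 8 and 1 on chromosome 3. The choice of this region was made with earlier results of these data known. Of the 397 genes, 250 (63.0%) had enough counts to be tested, against 7531 of 20081 other autosomal protein-coding rows (37.5%) and 9986 rows in all. A further 50 proximal genes (12.6%) had 0 counts in all 17 libraries, against 24.4% of the other autosomal protein-coding rows.

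RNA came from splenic CD4+ T cells of NOD mice, the inbred strain that develops autoimmune diabetes, sorted for GFP expressed with Foxp3, the transcription factor that defines regulatory T cells (Tregs). All mice carried the Foxp3-GFP reporter. The transgenic group (genotype NOD-60A Tg+, overexpressing Nfkbid) had 6 libraries, each of 1 sample. The knockout group, in which Nfkbid is ablated, had 5 libraries and the NOD control group 6, each library of these groups being a pool of 2 samples, so unpooled libraries and the transgenic genotype cannot be told apart. The sources used here do not give age, sex or the promoter that drives the transgene, and 1 batch date is listed for all libraries. Column names of the libraries also carry serial numbers, which are consecutive in the knockout group and apart from those of the other groups. What these numbers stand for is not stated. The series title concerns protection from type 1 diabetes in Nfkbid-overexpressing NOD mice.

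Nfkbid encodes IkBNS, an atypical IkB protein that sits in the nucleus and, with the p50 subunit of NF-kB, raises or lowers transcription of individual target genes. In T cells it takes part in cytokine production and in the induction of Foxp3 in developing Tregs. Mouse chromosomes carry the centromere at one end, so the proximal genes are those nearest the centromere in the assembled sequence. They share position and not function: among them are the kinase Cdk6, the cytokines Lif and Clcf1, chromatin enzymes, splicing and mitochondrial proteins, regulators of the actin cytoskeleton, and tissue-restricted genes of neurons, muscle and gut.

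The promoters of 4 genes are shown, chosen by hand from those that differed between transgenic libraries and both other groups under all alternatives run. Nf2, Plekhg1, Ppp1r14c, Shcbp1 and Carns1 met the same condition and are not shown. RefSeq on GRCm38.p6 gives Lif (a cytokine of the interleukin-6 family) at chr11:4257318-4257617 on the plus strand, Cdk6 (a cyclin-dependent kinase of the G1 phase) at chr5:3343643-3343942 on the plus strand, Suv39h2 (a histone H3 lysine 9 methyltransferase) at chr2:3474937-3475236 on the minus strand, and Nlrc3 (a cytoplasmic receptor that restrains T cell activation) at chr16:3976583-3976882 on the minus strand. The first 3 genes were higher and Nlrc3 was lower in transgenic libraries. Each window runs 5′ to 3′ on the gene's strand, from 250 bases before to 50 bases after the annotated start, with any motif match in capitals.
Lif: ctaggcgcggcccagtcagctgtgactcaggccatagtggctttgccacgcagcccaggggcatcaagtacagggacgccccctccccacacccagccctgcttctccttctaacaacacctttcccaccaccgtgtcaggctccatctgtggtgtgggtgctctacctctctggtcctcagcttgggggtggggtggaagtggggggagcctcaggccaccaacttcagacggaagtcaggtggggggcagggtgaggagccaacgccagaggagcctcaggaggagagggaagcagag
Cdk6: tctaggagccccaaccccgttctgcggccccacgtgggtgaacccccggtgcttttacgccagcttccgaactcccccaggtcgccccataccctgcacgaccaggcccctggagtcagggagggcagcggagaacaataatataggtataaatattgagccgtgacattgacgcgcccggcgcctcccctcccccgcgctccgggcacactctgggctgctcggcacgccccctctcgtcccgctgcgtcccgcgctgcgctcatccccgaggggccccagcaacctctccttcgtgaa
Suv39h2: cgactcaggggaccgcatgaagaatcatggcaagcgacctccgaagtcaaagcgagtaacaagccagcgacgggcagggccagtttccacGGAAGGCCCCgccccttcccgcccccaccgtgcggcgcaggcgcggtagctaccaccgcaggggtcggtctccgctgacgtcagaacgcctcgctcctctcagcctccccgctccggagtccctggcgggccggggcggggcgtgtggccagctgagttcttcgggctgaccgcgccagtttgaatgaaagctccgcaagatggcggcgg
Nlrc3: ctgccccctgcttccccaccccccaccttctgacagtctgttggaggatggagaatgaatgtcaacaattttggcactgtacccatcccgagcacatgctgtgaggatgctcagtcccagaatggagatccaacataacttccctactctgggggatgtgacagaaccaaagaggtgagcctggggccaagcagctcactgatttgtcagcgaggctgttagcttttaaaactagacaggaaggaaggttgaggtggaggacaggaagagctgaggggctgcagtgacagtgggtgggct
The windows were searched on both strands for the kappaB consensus of NF-kB, the E2F-type motif TTTNGCGC and an interferon-response motif of 2 GAAA boxes with 2 bases between them. Of these 4 windows only that of Suv39h2 held a match, a kappaB match. Over the 299 proximal genes with a RefSeq window, 5.76% of 382 windows held a kappaB match, against 5.81% of all 32851 windows. The E2F-type motif was in 1.57% of proximal windows and 1.38% of all windows, and the interferon-response motif in 1.83% and 3.44%. Among the genes higher in transgenic libraries than in both other groups, 1 of 10 with a window held a kappaB match, and of 3 with a window among those lower than in both, none did. A match describes these letters only, and its absence says nothing of the factor.

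Libraries held 3133359 to 4726589 counts, and 3 counts, the floor of detection used here, corresponded to 0.635 to 0.957 CPM, the count scaled to the library's total. The proximal genes together took 4.94 to 5.30% of the counts in each library. Many rows elsewhere in the table did not behave as the gene they name: of genes active in almost every cell type, B2m was at 0 in all libraries, Eef1a1 at 0 to 2 counts and Actb at 0 to 7. The Nfkbid row, at 30.4 Mb on chromosome 7, held 3.20 to 5.74 CPM in control, 7.28 to 10.3 in transgenic and 2.31 to 8.75 in knockout libraries. It was higher in transgenic than in control libraries (log2 fold change 0.94, adjusted p = 0.045) and did not pass against knockout (0.87, adjusted p = 0.065). The row was not lower in knockout than in control libraries (0.06, adjusted p = 0.91) and does not bear out the knockout label. Rows at such positions may not count the gene they name, however. The terms "transgenic" and "knockout" below therefore mean the libraries so labelled. Foxp3, on the X chromosome, ran from 222 to 382 CPM over all libraries and passed the test in no comparison. Knockout replicates 2, 3 and 5 stood apart, with 13466 to 13793 rows above 0 counts, against 15024 and 15908 in knockout replicates 1 and 4, 15781 to 17352 in control and 15776 to 16673 in transgenic libraries. Transgenic replicate 1 had 15793 rows above 0 but a TMM scaling factor of 0.864, like knockout replicates 2 and 5 (0.864 and 0.859), against 0.951 to 1.09 in the other 14 libraries. Among proximal genes it was low with those 3 libraries for Vasn (5.94 CPM, against 25.4 to 89.8 in the other transgenic libraries), Akap9 (113 against 177 to 278) and Fam208b (351 against 672 to 933), genes chosen after their values were seen. The named values against knockout, and the medians and counts, are given below also without the 3 knockout libraries where the call, the sign or the size moved.

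The levels of the proximal rows are set beside what lymphocytes are known to transcribe. Of 38 proximal genes that lymphocytes transcribe, 37 had at least 10 CPM, with a median of 258 CPM over the 38. The exception was Uqcr10, a small subunit of respiratory complex III, at 0.569 CPM. Of 29 proximal genes of other tissues, 25 were under 1 CPM, 10 of them at 0 in all libraries, and the median was 0.0188 CPM. The 4 above 1 CPM were Tnnt1 (troponin T of slow muscle) at 1.90, Syt12 (a synaptotagmin) at 3.65, Srl (sarcalumenin of muscle) at 5.25 and Nefh (the heavy neurofilament chain) at 27.8 CPM. The 6 proximal markers of B, NK and myeloid cells summed to 7.64 to 17.6 CPM in control, 1.56 to 17.2 in transgenic and 2.97 to 21.9 in knockout libraries. The B cell marker Fcer2a (0.953 CPM), the NK cell receptor Ncr1 and the myeloid genes Pira2, Mefv and Cd209a averaged under 1 CPM each. Pirb, an inhibitory receptor of myeloid and B cells, averaged 7.95 CPM and passed the test in no comparison. It held 7.35 to 14.5 CPM in control and 1.35 to 13.9 in knockout libraries. Transgenic libraries held 0.933 to 3.11 CPM, apart from replicate 6 at 15.1. The log2 fold change of Pirb in transgenic libraries was -1.24 against control and -1.03 against knockout. Whether the content of other cells differed between the groups was not tested. The region was chosen because its rows were known to match the genes they name, so these values describe the rows and are no independent check, and whether single rows are displaced along the genome was not tested.

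**Figure D1:**
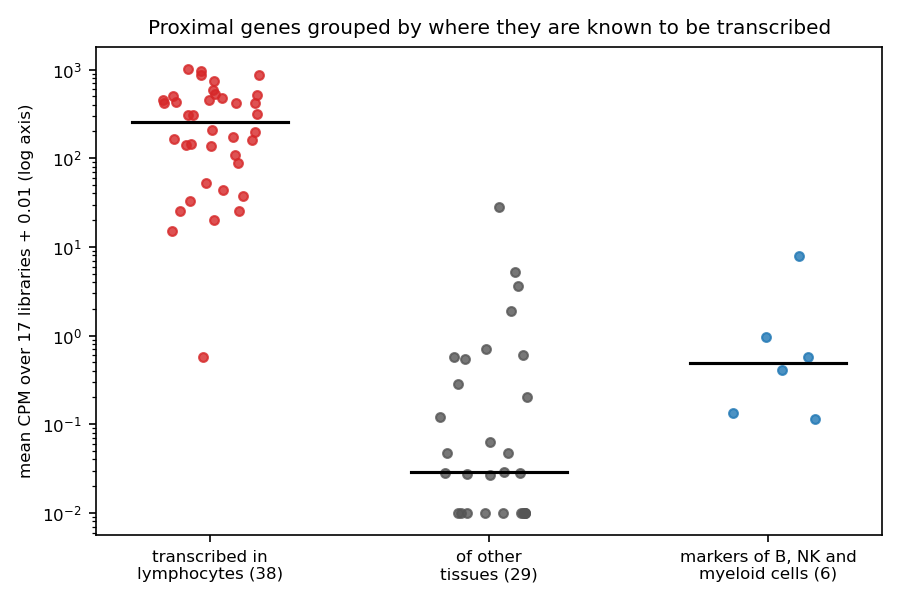
Mean CPM over all 17 libraries (log10 scale) of proximal genes in 3 lists, with 1 point for each gene. Genes transcribed in lymphocytes have a median of 258 CPM and, apart from Uqcr10, lie at 10 CPM or more. Most genes of other tissues and most markers of other cells lie under 1 CPM.

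Comparing the 6 transgenic with the 6 control libraries asks what overexpression of Nfkbid changes in Tregs. Of the 250 tested proximal genes, 19 were higher and 7 lower in transgenic libraries at an adjusted p under 0.05 (edgeR quasi-likelihood test, Benjamini-Hochberg over all 9986 rows). That is 10.4% of the proximal genes beside 7.4% of all rows tested, of which 5.23% were higher and 2.17% lower. The tested proximal genes had a median of 52.8 CPM, beside 16.8 over all tested rows. Shares past the threshold, here and below, were not matched for CPM. Whether this difference in CPM accounts for the larger shares was not tested. In 14 of the 26 the transgenic and control values did not overlap, a count among genes already past the threshold. The median log2 fold change of proximal genes was 0.04, beside -0.01 over all rows, and 74 of the 250 had an unadjusted p under 0.05. Neither the overlap count nor the unadjusted count was made over all rows, and nothing is concluded from them about the region.

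Transgenic against knockout gave 19 higher and 23 lower proximal genes, 16.8% of those tested beside 10.7% of all rows (6.34% higher, 4.33% lower). The median log2 fold change was -0.07, beside 0.00 over all rows, and 0.12, beside -0.01, without knockout replicates 2, 3 and 5. Knockout against control gave 3 higher and 2 lower, 2.0% beside 1.89% of all rows (0.881% higher, 1.01% lower), with a median of 0.11 beside -0.02, and of -0.05 beside -0.01 without those 3 libraries. The sign of both medians thus turned. The fit without knockout replicates 2, 3 and 5 tested 254 proximal genes. The counts became 17 higher and 3 lower for transgenic against knockout. These were 20 of the 254, a share near the 7.34% of all rows. Of them, 10 of the higher and 2 of the lower genes were shared with the full data. For knockout against control the counts became 0 higher and 1 lower, 1 of 254 beside 0.397% of all rows, and none of the 5 calls was kept. For transgenic against control they became 31 higher and 12 lower, 43 of 254 beside 12.4% of all rows. The 43 included all 26 genes of the full data. Leaving out 1 library also moved the counts: without knockout replicate 4 knockout against control gave 29 higher and 10 lower, without knockout replicate 1 it gave 17 and 5, and without transgenic replicate 1 transgenic against knockout gave 39 lower and knockout against control 12 higher and 6 lower. The share of all rows past the threshold is not given for the fits without 1 library. Whether the whole table moved with the proximal genes there is thus not shown. The 3 comparisons share libraries pairwise, so their values are set side by side and are not independent.

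**Figure D2:**
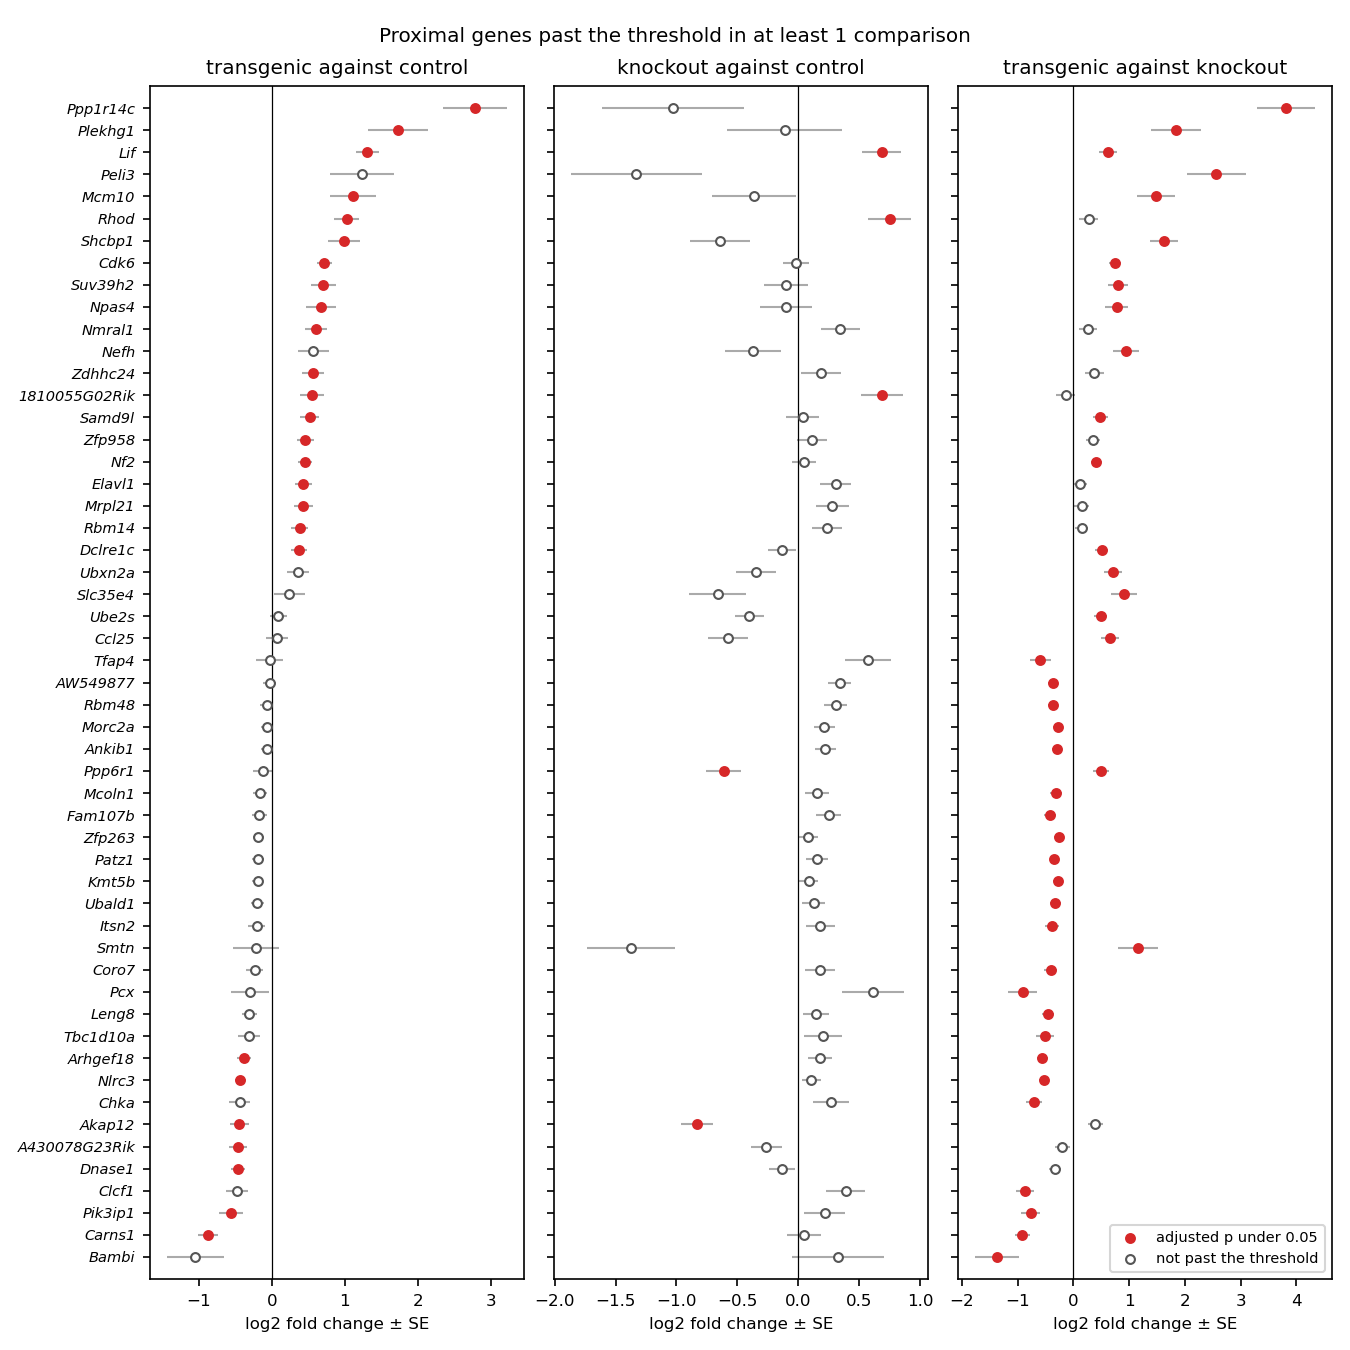
Log2 fold changes ± SE of the 53 proximal genes past the threshold in at least 1 of the 3 comparisons, with 1 panel for each comparison and filled points past the threshold. Ppp1r14c has the highest value against both other groups (2.78 and 3.81), and the panels' horizontal axes differ in range.

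In all, 11 proximal genes (4.4% of those tested, beside 3.17% of all rows) were higher in transgenic libraries than in both other groups: Cdk6, Dclre1c, Lif, Mcm10, Nf2, Npas4, Plekhg1, Ppp1r14c, Samd9l, Shcbp1 and Suv39h2. Another 4 (1.6%, beside 0.941% of all rows) were lower than in both: Arhgef18, Carns1, Nlrc3 and Pik3ip1. The plot of fold changes shows these genes with filled points in the first and the third panel. In bulk RNA, a change in the share of cells that express a gene and a change in RNA per cell cannot be told apart.

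Cdk6, Mcm10 and Shcbp1 were higher in transgenic libraries than in both other groups, and Ube2s than in knockout. They are described together for their roles and were taken because they passed, and other proximal genes with such roles did not: the centromere gene Cenpo was at -0.06 (adjusted p = 0.86) and the centrosome gene Sfi1 at -0.15 (adjusted p = 0.54) against control. Gene positions are given on GRCm38. Cdk6 (chr5:3341485-3531008), which with D-type cyclins drives passage through G1, ran from 284 to 402 CPM with a median of 376 in control and from 381 to 680.3 CPM with a median of 612 in transgenic libraries, and the 5 knockout libraries held 392, 279, 306, 361 and 293 CPM. The transgenic range overlapped both others at its lower end. The log2 fold change was 0.72 (SE 0.10, adjusted p = 4.9e-05) against control, a rise of 1.65-fold, and 0.74 (SE 0.11, adjusted p = 6.1e-05) against knockout, or 0.68 (adjusted p = 0.0062) without the 3 knockout libraries, and the call held under all alternatives run in both comparisons.

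Mcm10 (chr2:4989714-5012791), a replication initiation factor that loads DNA polymerase alpha, ran from 14.1 to 26.9 CPM with a median of 19.1 in control and from 28.7 to 50.5 CPM with a median of 39.5 in transgenic libraries, with 5.36, 19, 12.7, 4.62 and 24.1 CPM in knockout replicates 1 to 5. Every transgenic library lay above every other library. The log2 fold change was 1.12 (SE 0.32, adjusted p = 0.032) against control and 1.48 (SE 0.34, adjusted p = 0.007) against knockout. The call against control was lost without any 1 of transgenic replicates 1, 2, 5 and 6 or control replicates 2, 3, 4, 5 and 6 (log2 fold change 0.98 to 1.14, adjusted p = 0.056 to 0.073). Knockout replicates 1 and 4 were the lowest of all 17, and without replicates 2, 3 and 5 the value against knockout was 3.08 (adjusted p = 1.2e-06). In that same fit Mcm10 was lower in knockout than in control libraries, with a log2 fold change of -1.95 (adjusted p = 0.0031), the 1 proximal gene to pass there. With all libraries it did not pass in that comparison, at -0.36 (adjusted p = 0.54).

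Shcbp1 (chr8:4735976-4779567), a spindle and midbody protein of dividing cells, ran from 9.06 to 20.5 CPM with a median of 13.5 in control and from 18.7 to 35.7 CPM with a median of 23.8 in transgenic libraries, against 6.49, 7.00, 12.1, 7.51 and 7.28 CPM in knockout. The transgenic and knockout ranges were apart, and the transgenic range met the control range at its lower end. Its log2 fold changes were 0.98 (SE 0.22, adjusted p = 0.0063) against control and 1.63 (SE 0.24, adjusted p = 9.6e-05) against knockout, the latter 1.99 (adjusted p = 0.00043) without the 3 libraries. Ube2s, the ubiquitin-conjugating enzyme with which the anaphase-promoting complex extends chains, passed between transgenic (151 to 200.4 CPM) and knockout (110.4 to 141 CPM) libraries, at 0.49 (SE 0.12, adjusted p = 0.0082), or 0.56 (adjusted p = 0.03) without the 3 libraries. It was 0.09 against control (adjusted p = 0.73), and knockout against control gave -0.40 (adjusted p = 0.07).

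Suv39h2 (chr2:3455815-3475031), whose promoter with its kappaB match is printed above, ran from 21.6 to 28.4 CPM with a median of 24.6 in control and from 29 to 43.3 CPM with a median of 39.9 in transgenic libraries, and the knockout libraries held 20.3, 16.5, 13, 28 and 27.2 CPM. No transgenic library lay as low as any of the other 11. The log2 fold change was 0.71 (SE 0.17, adjusted p = 0.011) against control and 0.80 (SE 0.18, adjusted p = 0.0053) against knockout, the latter 0.75 (adjusted p = 0.02) without the 3 knockout libraries. Its neighbour Dclre1c, on the opposite strand of chromosome 2, encodes Artemis, the nuclease that opens hairpins in V(D)J recombination. Dclre1c ran from 95.6 to 145 CPM in control, 117 to 179 in transgenic and 78.3 to 142 in knockout libraries, ranges that overlapped. It was higher in transgenic libraries by 0.37 (SE 0.11, adjusted p = 0.045) against control and 0.50 (SE 0.12, adjusted p = 0.0075) against knockout, the latter 0.27 (adjusted p = 0.25) without the 3 knockout libraries. The call against control was lost without any 1 of transgenic replicates 2, 3, 4, 5 and 6 or control replicates 2, 3, 4, 5 and 6 (log2 fold change 0.32 to 0.39, adjusted p = 0.054 to 0.11). The exons of these 2 genes overlap by a small part, 9.98% of Suv39h2 being shared with other genes, and how strand was treated in counting is not stated in the sources used here.

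Of the 13 listed proximal chromatin genes, all tested, 1 (Suv39h2) was higher in transgenic than control and none lower, with a median of -0.07. Against knockout 1 was higher and 3 lower, with a median of -0.13. Over all rows tested these medians were -0.01 and 0.00. The lower ones included Kmt5b, a histone H4 lysine 20 methyltransferase, at -0.28 (adjusted p = 0.023), and Patz1, a zinc finger repressor of thymocyte development, at -0.34 (adjusted p = 0.015). Leaving out the 3 knockout libraries, these were -0.17 (adjusted p = 0.32) and -0.26 (adjusted p = 0.14), no chromatin gene was lower, and the median was -0.05. Of the 6 genes of genome maintenance, Dclre1c alone passed against either group. Of all rows tested, 5.23% were higher and 2.17% lower in transgenic than control, and 6.34% and 4.33% against knockout. Counts past the threshold in the lists, here and below, were not tested against those shares. Nothing is concluded from them about any list.

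Lif (chr11:4257557-4272514) ran from 13.3 to 24.3 CPM with a median of 19 in control and from 38.3 to 53.8 CPM with a median of 42.5 in transgenic libraries, and knockout replicates 1 to 5 held 27.4, 32.5, 26.7, 24 and 25.8 CPM. The transgenic values lay above all others, and 4 of the 5 knockout values lay above the control range. Lif was 1.31 (SE 0.15, adjusted p = 4.0e-06) higher on the log2 scale in transgenic than in control libraries, a 2.48-fold difference, and 0.62 (SE 0.16, adjusted p = 0.012) higher than in knockout. Lif was also higher in knockout than in control libraries, by 0.69 (SE 0.16, adjusted p = 0.028), the 1 proximal gene to pass in all 3 comparisons. Without knockout replicates 2, 3 and 5 that last value was 0.45 (adjusted p = 0.54), and the difference from transgenic libraries was 0.87 (adjusted p = 0.0082). The call of knockout against control was lost without any 1 of knockout replicates 2, 3 and 5 or control replicates 1, 3, 4 and 6 (log2 fold change 0.58 to 0.70, adjusted p = 0.057 to 0.092).

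Clcf1 (chr19:4214238-4223490), like Lif a cytokine of the interleukin-6 family, went the other way against knockout. It ran from 394 to 685 CPM with a median of 533 in control and from 309.9 to 422 CPM with a median of 357 in transgenic libraries, and stood at 597, 719, 636, 468 and 670.4 CPM in knockout. All transgenic libraries were below all knockout libraries, and the log2 fold change was -0.87 (SE 0.16, adjusted p = 0.00087). It did not pass against control, at -0.48 (adjusted p = 0.061), nor against knockout without the 3 libraries, at -0.48 (adjusted p = 0.1). Ccl25, a chemokine that attracts CCR9-bearing lymphocytes to thymus and gut, was low, at 21.5 CPM over all libraries, and higher in transgenic than knockout by 0.65 (SE 0.16, adjusted p = 0.012), or 0.45 (adjusted p = 0.17) without the 3 libraries. Bambi, a decoy receptor of TGF-beta signalling, averaged 5.84 CPM and was lower in transgenic than knockout, at -1.37 (SE 0.40, adjusted p = 0.03), a call lost in 10 of 27 alternatives and at -0.49 (adjusted p = 0.58) without the 3 libraries. Of the 12 listed proximal cytokines and receptors only 5 were tested, since 7 averaged under 1 CPM.

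Among regulators of lymphocyte signalling, Nlrc3 (chr16:3945007-3976632) fell in transgenic libraries. It ran from 1024 to 1193 CPM with a median of 1122 in control and from 756 to 848 CPM with a median of 780.0 in transgenic libraries, with 1152, 993, 1148, 1149 and 1019 CPM in knockout. The 6 transgenic libraries were the 6 lowest of 17. The log2 fold change was -0.43 (SE 0.07, adjusted p = 0.00045) against control and -0.54 (SE 0.08, adjusted p = 4.8e-05) against knockout, and both calls held under all alternatives run. The latter was -0.46 (adjusted p = 0.0048) without the 3 knockout libraries. Pik3ip1 (chr11:3330401-3342971), a transmembrane inhibitor of PI3-kinase in T cells, ran from 340.0 to 607 CPM with a median of 479.7 in control and from 241 to 354 CPM with a median of 308 in transgenic libraries, and the knockout libraries held 411, 565, 452, 479 and 562 CPM. The transgenic range was apart from that of knockout and overlapped that of control in part. Pik3ip1 fell, with log2 fold changes of -0.55 (SE 0.16, adjusted p = 0.04) against control and -0.77 (SE 0.17, adjusted p = 0.0044) against knockout, and the second was -0.45 (adjusted p = 0.17) without the 3 knockout libraries. The first was lost without any 1 of transgenic replicates 2, 3, 4, 5 and 6 or control replicates 1, 2, 3 and 4 (log2 fold change -0.59 to -0.47, adjusted p = 0.055 to 0.11).

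Samd9l (chr6:3372257-3399572), an interferon-inducible gene that restrains translation and proliferation, ran from 2385 to 3914 CPM with a median of 2624 in control, from 2759 to 4624 CPM with a median of 4063 in transgenic and stood at 3334, 2080.1, 2957, 3183 and 1849 CPM in knockout libraries. These ranges overlapped, and control replicate 2, at 3914 CPM, stood above the other 5 (2385 to 2905). Samd9l was higher in transgenic libraries by 0.52 (SE 0.13, adjusted p = 0.015) against control and 0.48 (SE 0.14, adjusted p = 0.026) against knockout. The second did not pass without the 3 knockout libraries, at 0.33 (adjusted p = 0.24), nor without any 1 of transgenic replicates 2, 3, 4 and 5 or knockout replicates 2 and 5 (log2 fold change 0.41 to 0.48, adjusted p = 0.051 to 0.081). Peli3, a Pellino ubiquitin ligase of Toll-like and interleukin-1 receptor signalling, was low: 6.43 to 11.2 CPM in transgenic, 2.91 to 6.25 in control and 1.69, 1.40, 0, 4.33 and 0 in the knockout libraries, 2 of which had no count. It was higher in transgenic than knockout, with a fitted log2 fold change of 2.56 (SE 0.52, adjusted p = 0.0024), and 1.23 (adjusted p = 0.1) against control. With those 3 knockout libraries left out these were 1.66 (adjusted p = 0.013) and 1.25 (adjusted p = 0.0023), so that it passed against control too. Of the 20 listed signalling genes, 19 were tested. Of these 1 was higher and 2 lower in transgenic than control, with a median of -0.08, and 3 were higher and 2 lower against knockout, with a median of -0.07, or 3 higher and 1 lower with a median of 0.16 without the 3 knockout libraries.

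**Figure D3:**
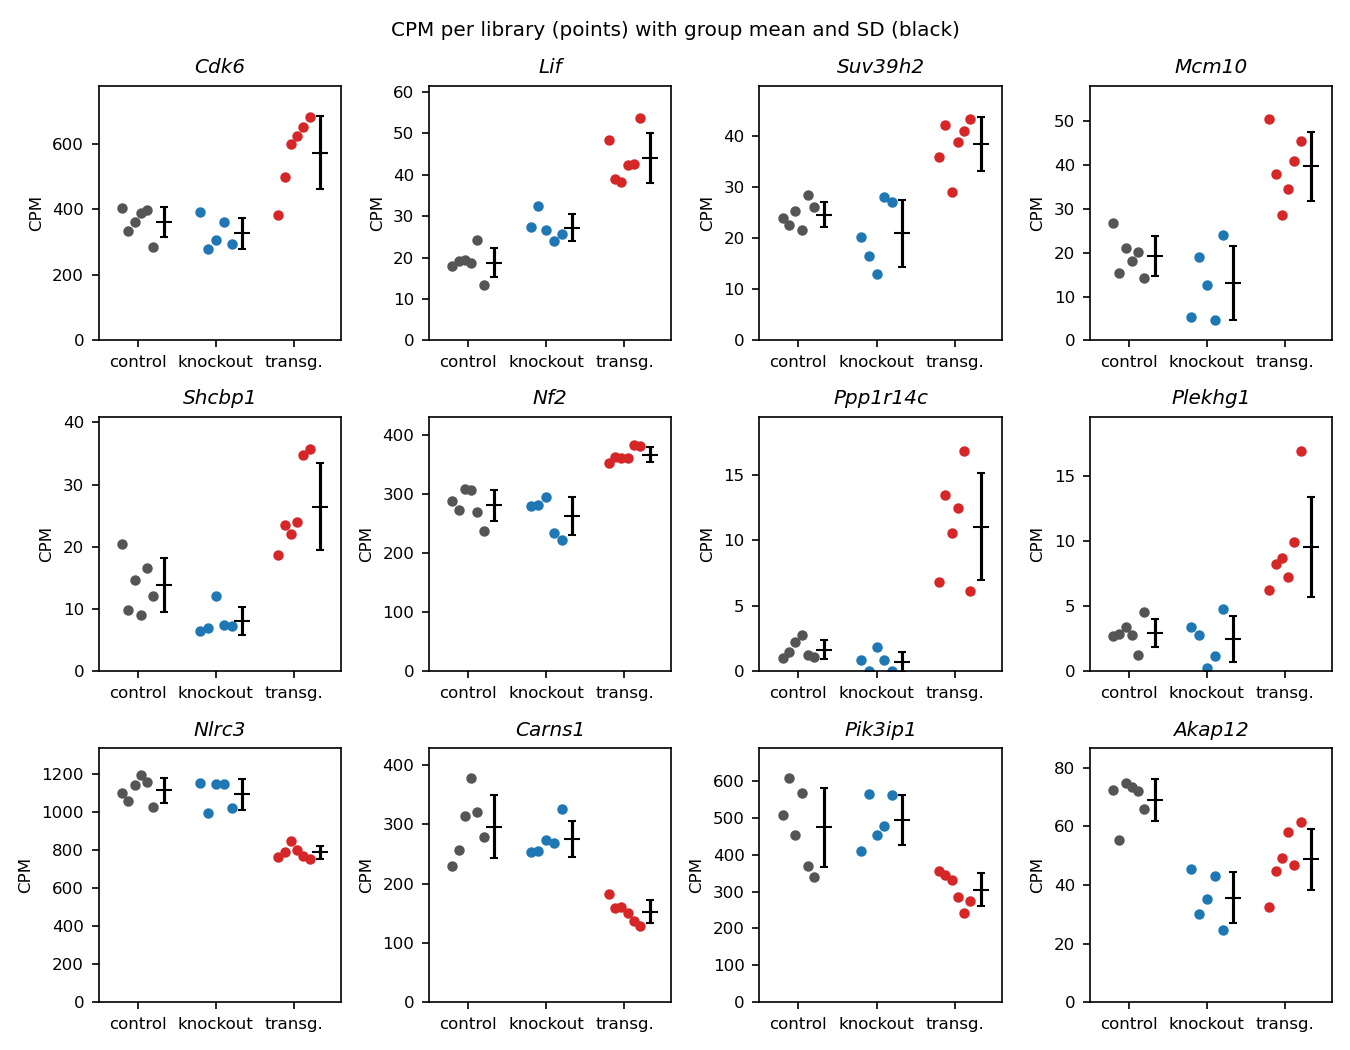
CPM of 12 proximal genes in each library (linear axes from 0, 1 point for each library, black marks at group means with SD), by group. All 6 transgenic points of Lif and Mcm10 lie above, and all 6 of Nlrc3 and Carns1 below, the points of both other groups.

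The genes of the cytoskeleton and its regulators did not move in 1 direction. Nf2 (chr11:4765845-4849536), which encodes Merlin, a membrane-cytoskeleton linker and tumour suppressor of the Hippo pathway, ran from 238 to 309 CPM with a median of 280.1 in control and from 352 to 383 CPM with a median of 361 in transgenic libraries, with 280.2, 281, 295, 234 and 222 CPM in knockout. The transgenic values were tight and above all others. Nf2 was higher by 0.46 (SE 0.09, adjusted p = 0.0029) against control and by 0.41 (SE 0.10, adjusted p = 0.0088) against knockout, the latter 0.60 (adjusted p = 0.0027) without the 3 libraries. Rhod (chr19:4425459-4439432), a small GTPase of endosome movement, ran from 10.2 to 20.9 CPM with a median of 14.8 in control and from 21.8 to 34.2 CPM with a median of 31.5 in transgenic libraries, apart from each other, and stood at 25.7, 22.9, 28.3, 19.1 and 21.6 CPM in knockout. It was higher than in control by 1.02 (SE 0.17, adjusted p = 0.00032) in transgenic and by 0.75 (SE 0.18, adjusted p = 0.031) in knockout libraries, and these 2 groups were 0.27 (adjusted p = 0.35) apart. Without the 3 knockout libraries the knockout value was 0.53 (adjusted p = 0.52), and that call was also lost without any 1 of knockout replicates 2, 3 and 5 or control replicates 1, 2, 3, 5 and 6 (log2 fold change 0.67 to 0.79, adjusted p = 0.05 to 0.082).

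Arhgef18 (chr8:3393006-3456601), a guanine nucleotide exchange factor for small GTPases, ran from 1316 to 1417 CPM with a median of 1359 in control and from 903 to 1054 CPM with a median of 1011 in transgenic libraries, with 1306, 1449, 1410.4, 1328 and 1486 CPM in knockout. The transgenic libraries were apart from and below the other 11. The log2 fold change was -0.38 (SE 0.09, adjusted p = 0.016) against control and -0.56 (SE 0.10, adjusted p = 0.00063) against knockout, the latter -0.31 (adjusted p = 0.082) without the 3 libraries. With no filter on low counts the former had an adjusted p = 0.059. The predicted gene A430078G23Rik, on the same stretch of chromosome 8, was also lower than in control, at -0.46 (adjusted p = 0.025), a call lost in 7 of 27 alternatives.

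The highest fold changes against control were those of Ppp1r14c and Plekhg1, both low genes of chromosome 10. Ppp1r14c (chr10:3366057-3464975), an inhibitor of protein phosphatase 1, ran from 1.06 to 2.81 CPM with a median of 1.36 in control and from 6.15 to 16.8 CPM with a median of 11.5 in transgenic libraries, while the knockout libraries held 0.847, 0, 1.89, 0.866 and 0 CPM. Every transgenic library exceeded every other, and the values of most other libraries lay near the floor. The fitted log2 fold change was 2.78 (SE 0.44, adjusted p = 0.00018) against control and 3.81 (SE 0.52, adjusted p = 3.4e-05) against knockout, the latter 3.71 (adjusted p = 0.00014) without the 3 libraries. Of its exon length, 29.2% is shared with Gm26752 on the other strand, so reads of the 2 cannot be told apart. Plekhg1 (chr10:3740364-3967303), a guanine nucleotide exchange factor, ran from 1.28 to 4.53 CPM with a median of 2.86 in control and from 6.24 to 16.9 CPM with a median of 8.49 in transgenic libraries, with 3.39, 2.80, 0.27, 1.16 and 4.76 CPM in knockout. Its transgenic values lay above all others, and transgenic replicate 6, at 16.9 CPM, was well above the other 5. The log2 fold changes were 1.73 (SE 0.41, adjusted p = 0.011) against control and 1.84 (SE 0.45, adjusted p = 0.01) against knockout, the latter 2.13 (adjusted p = 0.01) without the 3 libraries. Their neighbour Iyd, a thyroid deiodinase gene, had 0 counts in all libraries, and H60c, an NKG2D ligand gene, did not pass against control, at 0.19 (adjusted p = 0.74).

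Akap12 (chr10:4266380-4359470), a scaffold of protein kinases A and C on the same chromosome, ran the other way. It ran from 55.5 to 74.6 CPM with a median of 72.2 in control and from 32.4 to 61.5 CPM with a median of 48.1 in transgenic libraries, with 45.4, 30.2, 35.3, 43 and 24.6 CPM in knockout, whose values were all below those of control. Akap12 was lower than in control, with log2 fold changes of -0.44 (SE 0.13, adjusted p = 0.033) in transgenic and -0.83 (SE 0.13, adjusted p = 0.0013) in knockout libraries. Without the 3 knockout libraries the latter was -0.65 (adjusted p = 0.11), and the former was lost without any 1 of transgenic replicates 1, 2, 3 and 5 or control replicates 1, 3, 4, 5 and 6 (log2 fold change -0.44 to -0.38, adjusted p = 0.058 to 0.082). The 17 listed cytoskeletal genes, 15 of them tested, had 2 higher and 1 lower in transgenic than control, and 2 higher and 3 lower against knockout, with medians of -0.02 in both comparisons. Against knockout without the 3 libraries, 3 were higher and none lower, with a median of 0.28.

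Carns1 (chr19:4164324-4175479), which encodes carnosine synthase, an enzyme best known from muscle and brain, ran from 229 to 377 CPM with a median of 297 in control and from 129 to 182 CPM with a median of 154 in transgenic libraries, with 253, 255, 273, 269 and 326 CPM in knockout. The transgenic values, all below the others, gave log2 fold changes of -0.87 (SE 0.14, adjusted p = 0.00017) against control and -0.92 (SE 0.14, adjusted p = 0.00014) against knockout, held under all alternatives run. The value against knockout was -0.68 (adjusted p = 0.012) without the 3 knockout libraries. The row may count other transcripts, since 45.9% of its exon length is shared with AC109138.8 on the same strand and Gm17552 on the other. Npas4, an activity-dependent transcription factor best known from neurons, averaged 33.2 CPM and was higher by 0.67 (SE 0.20, adjusted p = 0.045) against control and 0.77 (SE 0.21, adjusted p = 0.023) against knockout. Without the 3 knockout libraries the latter was 0.66 (adjusted p = 0.08). The calls were lost in 12 and 6 of 27 alternatives, with adjusted p up to 0.11 and 0.08. Nefh passed as higher in transgenic than in knockout libraries, by 0.94 (adjusted p = 0.01), and at 0.39 (adjusted p = 0.28) without the 3. In that fit it passed against control, at 0.58 (adjusted p = 0.0099), and with all libraries it did not, at 0.57 (adjusted p = 0.12).

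Several genes passed against control and, with all libraries, not against knockout. Those of RNA handling were Elavl1, which encodes the mRNA-stabilising protein HuR, at 0.43 (SE 0.12, adjusted p = 0.029) with no overlap of the groups, and Rbm14, a paraspeckle protein, at 0.38 (adjusted p = 0.048). Elavl1 also passed against knockout without the 3 knockout libraries, at 0.47 (adjusted p = 0.029). Rbm14 shares 21% of its exon length with other genes. The mitochondrial ribosomal gene Mrpl21 was 0.43 (adjusted p = 0.047) higher and Nmral1, a sensor of NADPH, 0.61 (adjusted p = 0.015) higher. Zdhhc24, of the palmitoyltransferase family, was at 0.56 (adjusted p = 0.028) and the zinc finger gene Zfp958 at 0.46 (adjusted p = 0.019). Dnase1, the secreted nuclease that clears extracellular DNA, was lower, at -0.46 (SE 0.10, adjusted p = 0.0057), with no overlap, although 18.1% of its exon length is shared with other genes. These calls, apart from Dnase1, were lost in part of the 27 alternatives: Rbm14 in 16, Mrpl21 in 14, Elavl1 in 8, Zdhhc24 in 7, Zfp958 in 2 and Nmral1 in 1, with adjusted p up to 0.12. Whether these genes differ between transgenic and knockout libraries less than they do from control was not tested.

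Of the 21 listed proximal genes of RNA processing, 2 were higher and none lower than in control, beside 5.23% and 2.17% of all rows. Their median log2 fold change was 0.08. Against knockout none was higher and 1 lower, with a median of -0.06, or 2 higher and none lower with a median of 0.10 without the 3 knockout libraries. The lower one was Rbm48, a factor of minor-intron splicing, at -0.37 (adjusted p = 0.01), or -0.27 (adjusted p = 0.17) in that fit. The 21 mitochondrial genes, of which 18 were tested, had 1 higher and none lower than in control, with a median of 0.22. In knockout against control none of them passed, with a median of 0.42, beside -0.02 over all rows, and of -0.02 without the 3 knockout libraries. Of 10 redox genes, 8 were tested and 1 (Nmral1) was higher than in control. None of the 15 genes of vesicles and lysosomes, 13 of them tested, passed against control, nor did any of the 13 of ubiquitin ligation and protein folding.

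The larger number of lower genes in transgenic against knockout came from 23 genes, 4 of which were also lower than in control (Arhgef18, Carns1, Nlrc3 and Pik3ip1). Fam107b, one of the most highly counted proximal genes, held 3002 to 3500.0 CPM in control, 2477 to 2814 in transgenic and 3102 to 3669 in knockout libraries, at -0.42 (adjusted p = 0.012) against knockout. Leng8 was at -0.45 (adjusted p = 0.0075) and Chka, the choline kinase that begins phosphatidylcholine synthesis, at -0.71 (adjusted p = 0.0032). Without the 3 knockout libraries these were -0.19 (adjusted p = 0.37), -0.24 (adjusted p = 0.25) and -0.36 (adjusted p = 0.21). Pcx, pyruvate carboxylase of the mitochondrion, was at -0.91 (adjusted p = 0.028), or -0.61 (adjusted p = 0.31) without the 3. Tfap4, a basic helix-loop-helix factor, was at -0.60 (adjusted p = 0.046), or -0.15 (adjusted p = 0.72) without the 3. Coro7, a coronin of the Golgi, was at -0.41 (adjusted p = 0.033) and Itsn2, an endocytic scaffold, at -0.39 (adjusted p = 0.044), or -0.12 (adjusted p = 0.63) and -0.35 (adjusted p = 0.11) without the 3. The lysosomal channel gene Mcoln1 was at -0.31 (adjusted p = 0.047) and Tbc1d10a, which inactivates Rab GTPases of secretory vesicles, at -0.51 (adjusted p = 0.042), or -0.10 (adjusted p = 0.66) and -0.36 (adjusted p = 0.31) without the 3. Ankib1, a ubiquitin ligase, was at -0.29 (adjusted p = 0.031), or -0.30 (adjusted p = 0.094) without the 3. Tfap4, Mcoln1, Itsn2 and Tbc1d10a each lost the call in 19 of 27 alternatives, Ankib1 in 12, and Pcx and Coro7 in 10 each. Of the 23, only Carns1 and Nlrc3 passed without the 3 knockout libraries.

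With all libraries, the genes that passed as higher against knockout and not against control included, besides Ube2s, Peli3, Ccl25 and Nefh, Ubxn2a, an adaptor of the p97 ATPase, at 0.70 (adjusted p = 0.0074), Smtn, a smooth muscle actin-binding protein, at 1.16 (adjusted p = 0.045), and Slc35e4, a solute carrier, at 0.90 (adjusted p = 0.015). Without the 3 knockout libraries these 3 were 0.51 (adjusted p = 0.12), 0.86 (adjusted p = 0.27) and 0.83 (adjusted p = 0.12). The same comparison without the 3 libraries added genes that had not passed with all of them, among them Ptprcap, which binds the phosphatase CD45, at 0.88 (adjusted p = 0.022), and Coro1b, an actin-binding coronin, at 0.59 (adjusted p = 0.019). Ptprcap and Coro1b overlap on the same strand of chromosome 19, and all of the exon length of Ptprcap is shared with other genes. These 2 were chosen after their values were seen, and whether the differences from knockout and from control differ was not tested.

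Comparing knockout with control libraries asks what loss of Nfkbid changes. The 3 higher genes were Lif, Rhod and 1810055G02Rik, the last at 0.69 (SE 0.17, adjusted p = 0.042) and also higher in transgenic than control, at 0.55 (adjusted p = 0.046). The 2 lower ones were Akap12 and Ppp6r1, a regulatory subunit of protein phosphatase 6. Ppp6r1 ran from 307 to 370.2 CPM with a median of 349 in control, with 278, 136, 205, 282 and 149 CPM in knockout, ranges that were apart, at -0.61 (SE 0.15, adjusted p = 0.032). Knockout replicates 2, 3 and 5 had the 3 lowest knockout values of Ppp6r1, and without them the value was -0.31 (adjusted p = 0.65). In transgenic libraries Ppp6r1 ran from 169 to 352 CPM with a median of 329.9, with replicate 1 at 169 CPM below the other 5 (312 to 352), and was higher than in knockout by 0.50 (adjusted p = 0.03), or 0.20 (adjusted p = 0.47) without the 3 libraries. The value of 1810055G02Rik without them was 0.44 (adjusted p = 0.65). Its call in knockout was lost in 18 of 27 alternatives and that in transgenic libraries in 14, and Ppp6r1 lost its calls in 10 against control and 11 against transgenic libraries. Lif, Rhod, 1810055G02Rik and Akap12 lay on the same side of control in transgenic and in knockout libraries; the 2 comparisons share the control libraries.

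**Figure D4:**
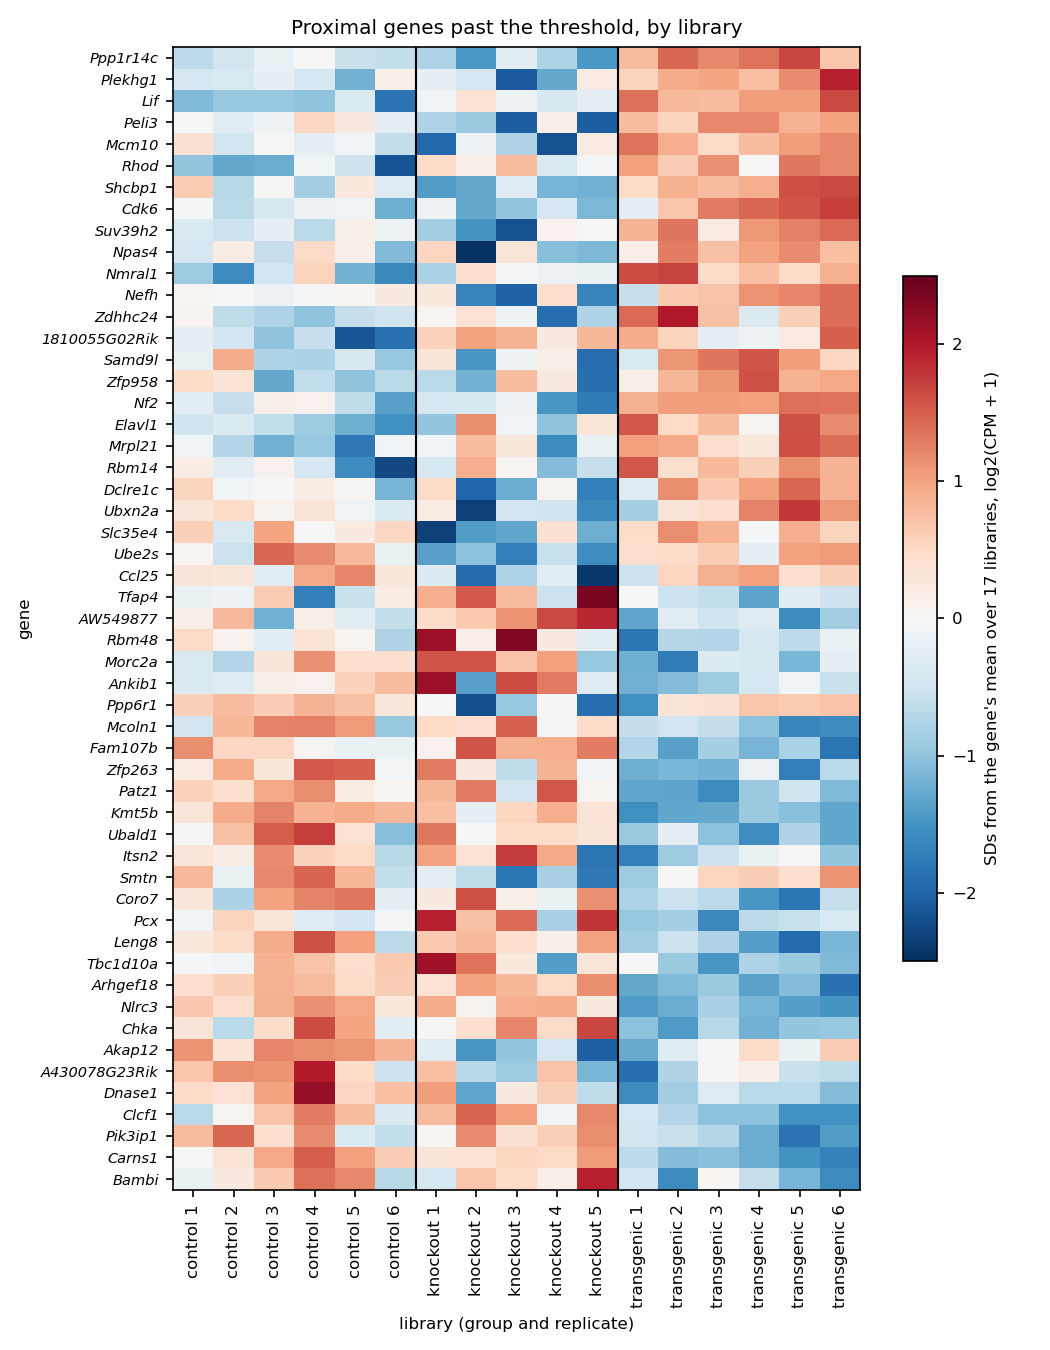
Log2(CPM + 1) of the proximal genes past the threshold in at least 1 comparison, with libraries in columns by group and genes in rows. Colours give SDs from each gene's mean over all libraries, with the scale capped at both ends. Their sizes cannot be compared between genes as fold changes. Knockout replicates 2, 3 and 5 differ from replicates 1 and 4 in rows such as Ppp6r1 (136, 205 and 149 against 278 and 282 CPM).

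Some of the most highly counted proximal genes passed with all libraries and others did not. Samd9l and Arhgef18 passed in transgenic libraries against both other groups, and Fam107b and Leng8 against knockout alone, with the values given above. Gm11808, Selenop, Grk2, Asxl2, Kdm2a and Mtmr3 passed in no comparison. Per kilobase of exon, the highest among the named genes were Gm11808 (mean of 5419.9 CPM per kilobase), Fam107b (711), Samd9l (582) and Selenop (369). Gm11808 may share reads with near-identical copies and is uncertain. Selenop, a selenium carrier, was at -0.06 (adjusted p = 0.88) in transgenic and 0.25 (adjusted p = 0.3) in knockout against control. Grk2, the kinase that desensitises chemokine receptors, was at 0.10 (adjusted p = 0.76) and 0.29 (adjusted p = 0.21). Asxl2, a Polycomb-associated protein, was at -0.13 (adjusted p = 0.47) and -0.08 (adjusted p = 0.62), and Kdm2a, a histone H3 lysine 36 demethylase, at 0.04 (adjusted p = 0.9) and 0.38 (adjusted p = 0.09). Mtmr3, a phosphoinositide phosphatase, was at 0.00 (adjusted p = 0.996) and 0.01 (adjusted p = 0.93).

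The 53 proximal genes that passed in any comparison (21.2% of those tested, beside 14.3% of all rows) lay on 12 of the 18 autosomes. Chromosome 19 had 12 of 50 tested genes, chromosome 11 had 9 of 31, chromosome 8 had 7 of 25 and chromosome 16 had 7 of 27. None passed on chromosomes 1, 4, 9, 13 and 17, where 3 to 7 genes each were tested, and the 1 proximal gene of chromosome 3 was not tested. The limit of 5 Mb fell among expressed genes. The last genes inside it, such as Mcm10 at 4.99 Mb on chromosome 2 and Npas4 at 4.98 Mb on chromosome 19, and the first outside it, such as Syne1 at 5.02 Mb on chromosome 10 and Card6 at 5.10 Mb on chromosome 15, were compared without a test. Of the 11 tested genes just inside, 3 passed in transgenic against control, 0 in knockout against control and 3 in transgenic against knockout, against 7, 0 and 6 of the 11 just outside. Over all rows tested the shares were 7.4%, 1.89% and 10.7%. Nothing is concluded from so few genes. Rows outside the limit were not part of the region chosen for matching rows and may not count the gene they name. The row of Syne1, which encodes a nuclear envelope protein, had a log2 fold change of -0.48 in transgenic against control and that of Card6 one of -0.28.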

How the data were processed

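The table the authors deposited holds expected counts of 17 libraries by gene, and 5.87% of its values were not whole. Per the labels' protocols, polyA RNA was read over 67 bp beside a molecular identifier of 9 bp. The aligner was Bowtie2, the genome GRCm38 and the transcripts Ensembl 102, per the submitters' processing notes and design text. The sources used here do not state duplicate removal or the strand setting; floors therefore reflect counting error alone. Genes were placed with GENCODE M21 on GRCm38, another annotation release, which matched 47224 of 47643 rows; exon lengths and overlaps are from it.

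Counts were rounded and tested by quasi-likelihood in edgeR 4.0.16 under R 4.3.3 (TMM factors, filterByExpr, all 17 libraries in 1 fit), with Benjamini-Hochberg adjustment over 9986 rows and a threshold of 0.05. The common biological coefficient of variation was 0.241. Fold changes use TMM factors, CPM values the library totals. Each SE was derived from the test, as the absolute log2 fold change divided by the square root of its F statistic. It is approximate, above all for genes with few or 0 counts in a group. Library names carry different sample identifiers for each library, and p-values reflect how these libraries vary. Tests on simulated data (9986 rows) for transgenic against control recovered 61% of changes of 1 and 86% of changes of 2 (log2), with 7 false calls. The values were 59%, 89% and 10 in knockout against control, then 56%, 88% and 6 in transgenic against knockout. Differences shared by many rows of a library, as in the knockout libraries that stood apart, were not part of the simulation. The false calls therefore do not show how many calls in the data rest on such libraries. Libraries within a group all differed by more than sampling noise.

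The proximal genes and the gene lists were chosen with earlier results of these data known. Named genes are, in each comparison, the 15 highest and 15 lowest fold changes among proximal genes past the threshold, up to 3 past the threshold of each list (or the one with the smallest p), the 10 with the highest CPM, and those next to the 5 Mb limit. Predicted genes were named only where past the threshold. Alternatives were RLE and upper-quartile factors, no filter, a mean of at least 1 CPM, DESeq2 1.42.0, voom in limma 3.58.1, unrounded counts, fits of 2 groups, a replicate block, leaving out each library or 3 knockout libraries, and a limit of 4 Mb.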

Additional observations from a re-analysis of the deposited data

Results flagged for a closer look

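Among the named proximal genes, 168 groups of values were examined for a library far from the rest of its group, and 8 values were set apart. Chance alone sets apart about 1 in 20 groups. Carns1 stood at 326 CPM in knockout replicate 5, against 253 to 273 in the other 4. Shcbp1 stood at 12.1 CPM in knockout replicate 3, against 6.49 to 7.51. Dnase1 stood at 127 CPM in control replicate 4, against 87.5 to 100.2 in the other 5. Samd9l stood at 3914 CPM in control replicate 2, against 2385 to 2905. Transgenic replicate 6 was high for Plekhg1, at 16.9 CPM against 6.24 to 9.95, and for Pirb, at 15.1 CPM against 0.933 to 3.11. Transgenic replicate 1 was low for Ppp6r1, at 169 CPM against 312 to 352, and for Rbm48, at 82.0 CPM against 93.8 to 101. Pirb is a marker of myeloid and B cells, and its part in other results of that library was not tested. Without the library concerned, the calls of Carns1, Dnase1, Plekhg1, Rbm48, Shcbp1 and Samd9l against control or knockout given above held.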

How the results depend on the processing

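Of 69 named results that passed, 24 kept their call in all 27 alternatives, 17 lost it in 1 to 5 and 28 in more, and none changed direction. In transgenic against control, the 19 higher and 7 lower proximal genes became 30 and 12 in a fit of the 2 groups, 31 and 12 without knockout replicates 2, 3 and 5, and 8 and 4 with a limit of 4 Mb, which covers fewer genes. The 7 lower became 11 with upper-quartile factors and 11 with DESeq2. In knockout against control, the 3 higher and 2 lower became 14 and 6 with DESeq2, 5 and 5 with no filter, 0 higher in a fit of the 2 groups, 0 and 1 without the 3 knockout libraries, and 1 and 0 under 4 Mb. In transgenic against knockout, the 19 higher became 8 under 4 Mb, and the 23 lower became 10 with no filter, 15 at a mean of at least 1 CPM, 8 in a fit of the 2 groups, 3 without the 3 knockout libraries and 14 under 4 Mb. Leaving out each library in turn gave 10 to 23 higher and 4 to 9 lower in transgenic against control, 0 to 29 and 1 to 10 in knockout against control, and 15 to 22 and 11 to 39 in transgenic against knockout. The cause of changes other than by fewer genes or libraries was not tested. Among the alternatives, the share of all rows past the threshold is given only for the fit without the 3 knockout libraries. The other counts therefore do not show whether proximal genes moved more than the whole table.

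Replicate numbers in the titles gave no pairing of libraries: 16 pairs with the same number had correlations of -0.52 to 0.36 (median 0.00) and 80 pairs with different numbers -0.53 to 0.48. With the replicate block, transgenic against control gave 11 higher proximal genes, knockout against control 0 higher and 1 lower, and transgenic against knockout 8 lower. Medians over all rows moved by under 0.1 between scalings, and for genes near 1 CPM 3 counts limit what can be seen.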
